A study of Homo sapiens with 4 samples.

Results

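The neurotransmitter receptor families were taken from a gene count table of SK-N-SH cells by symbol, as every gene named as a subunit or receptor for GABA, glutamate, acetylcholine, serotonin, adrenaline and noradrenaline, dopamine or glycine. Kinases and other proteins that only share the first letters of those symbols were dropped. This gave 65 of the 24014 genes in the table. Family members without a row there were not counted, so each share of a family is over its genes in the table alone. SK-N-SH is an established human neuroblastoma line, a tumour of the sympathetic lineage, and both groups were wild-type cells before infection. The control cells carried an empty lentiviral vector, and the AP1AR-DT_OE cells carried a lentivirus for AP1AR-DT, a long non-coding RNA that the labels call AC109347.1. There were 2 libraries in each group, and nothing in the labels says that they came from separate cultures, so a p-value measures only the spread between these libraries. For AP1AR-DT_OE replicate 2 the title was followed, since its genotype and treatment entries give the RNA a different version suffix. The study asked what overexpression of this RNA does in these cells, and here the question was which receptor families the cells expressed and whether any differed between the groups.

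Fast transmission uses ligand-gated channels, in which several subunits surround a pore that opens when a transmitter binds. Slow transmission uses single-chain receptors that activate G proteins. In sympathetic neurons, acetylcholine released from preganglionic fibres opens nicotinic channels, and the neurons carry adrenergic receptors that read their own transmitter, noradrenaline.

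The libraries held 21988065 to 26184599 counts. AP1AR-DT was counted 3 and 18 times in control and 680 and 1065 times under AP1AR-DT_OE, or 8.65 ± 7.40 against 901 ± 220 normalized counts (mean ± SD, n = 2 each). Its log2 fold change was 6.63 with a standard error of 0.64 (DESeq2 Wald test, adjusted p = 3.64e-21), and edgeR's quasi-likelihood test gave 6.60 with an adjusted p of 0.39. Markers of adrenergic neuroblastoma cells were expressed for 9 of 10 genes, with summed levels of 25578 to 29856 normalized counts. Markers of mesenchymal neuroblastoma cells were expressed for 9 of 9, with sums of 117791 in control replicate 2 to 156955 in control replicate 1. VIM and FN1 were the highest of these at 84131 and 24542 normalized counts on average, so they weigh most in the sums. Of the 9, 1 had an unadjusted p under 0.05 (DESeq2 Wald test), with lower counts under AP1AR-DT_OE. That marker was highest in control replicate 2, and none of the 9 was called. Of 5 glial, 3 endothelial and 4 immune markers listed, 2, 1 and 1 were in the table, and none passed the detection limit in every library. CD14 was at or under this limit in every library, while GFAP had raw counts of 44 and 32 in control and 30 and 8 under AP1AR-DT_OE. For Schwann cells 3 of the 3 in the table were expressed and for epithelial cells 2 of 3, with 4 listed for each. The part of this makeup in the receptor values was not tested, and in bulk RNA fewer cells of a type and less RNA per cell cannot be told apart.

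A gene was called expressed when its count was above 12 in all 4 libraries, the most that an observation of 0 allows when 3 read pairs at about 4 counts each are possible. By this rule 28 of the 65 receptor genes were expressed (43.1%), against 14732 of all 24014 genes (61.3%). Another 21 were at or under the limit in every library and were not detectable at this depth, and 16 passed it in some libraries only. Channel subunits were expressed for 17 of 35 genes and G protein-coupled receptors for 11 of 30. All receptor genes together summed to between 6664 normalized counts in control replicate 2 and 9179 in control replicate 1. That was 0.0330% to 0.0348% of the normalized counts of a library.

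The NMDA, alpha-adrenergic and nicotinic families were the 3 highest in every library, both as summed normalized counts and per length, but their order differed between these scales. The NMDA receptors, glutamate channels that need glycine as well and pass calcium, had 4 of 5 genes expressed and a total of 2395 ± 625 (mean ± SD over the 4 libraries, as for all totals here), which was 30.0% of the receptor sum. The alpha-adrenergic receptors had 3 of 5 expressed and 2176 ± 553, or 27.2%. The nicotinic acetylcholine receptors had 6 of 12 expressed and 1798 ± 39.9, or 22.5%. As summed counts NMDA lay above alpha-adrenergic in 4 of 4 libraries, although the means differed by less than either SD. With each gene divided by the length of its longest transcript, a scale added after the counts were seen, the order was alpha-adrenergic at 810 ± 199 normalized counts per kilobase, nicotinic at 566 ± 34.2 and NMDA at 465 ± 122. On this scale NMDA was below alpha-adrenergic in 4 of 4 libraries and below nicotinic in 3 of 4. Alpha-adrenergic lay above nicotinic in 3 of 4 libraries on both scales. In control replicate 2 nicotinic was the highest family on both. Its summed counts there were 1824, against 1678 for NMDA and 1487 for alpha-adrenergic, and per kilobase it had 602 against 560 for alpha-adrenergic. Dopamine at 130 ± 42.0 and GABA-A at 107 ± 10.5 followed per length. As summed counts the next families were GABA-A at 385 ± 41.3 with 2 of 6 expressed, kainate at 271 ± 32.4 with 2 of 4, and dopamine at 224 ± 62.3 with 2 of 3. Muscarinic receptors had 1 of 4 expressed and a total of 183 ± 39.0. The G protein-coupled serotonin receptors had 3 of 8 expressed and 171 ± 26.9. A single gene was expressed in each of the glycine (104 ± 51.5), AMPA (88.6 ± 21.3), metabotropic glutamate (51.3 ± 10.8) and delta (26.9 ± 8.29) families. In the metabotropic family the expressed gene, GRM7, averaged 24.9, and GRM2, which did not pass in every library, 19.7. The serotonin-gated channel was represented by HTR3C, with 3 counts in control replicate 1 and 0 in the other libraries. No GABA-B receptor gene was among those selected, so this family could not be described.

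**Figure D1:**
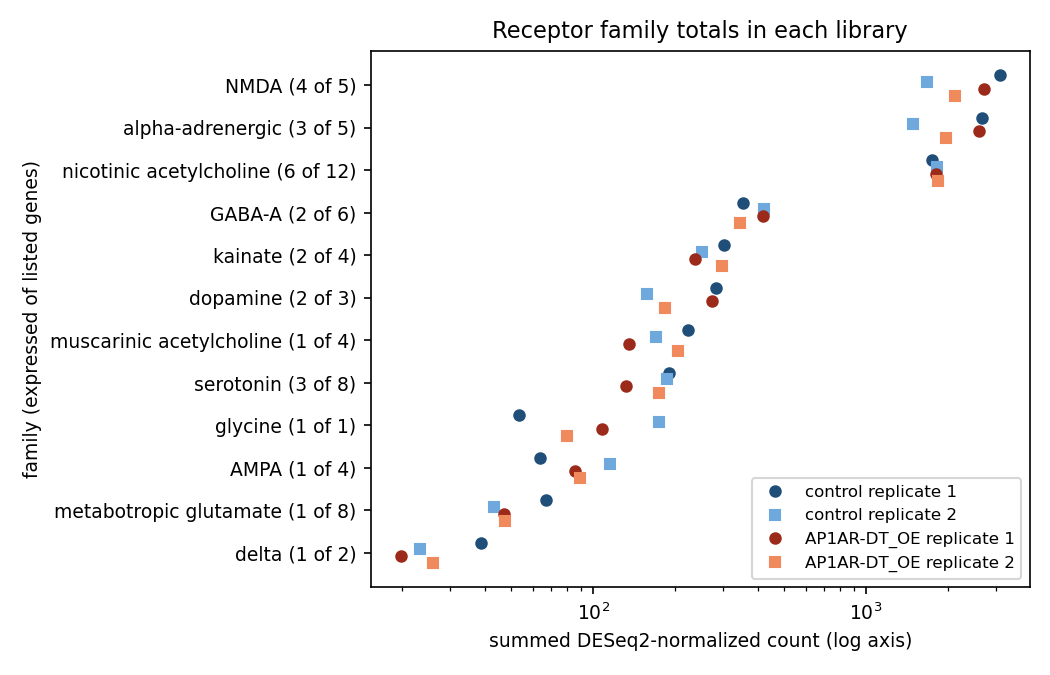
Summed DESeq2-normalized counts of 12 receptor families (log axis) in control and AP1AR-DT_OE replicates 1 and 2, with expressed and listed genes in brackets. NMDA, alpha-adrenergic and nicotinic totals lie at 1487 or above in every library, and no other family goes above 422.

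Among the 5 NMDA subunits in the table GRIN2D led. GRIN2D, the GluN2D subunit that closes slowly and is typical of the embryonic brain, had 2526 and 1334 normalized counts in control and 2128 and 1716 under AP1AR-DT_OE. The AP1AR-DT_OE libraries lay between the controls. GRIN1, the obligatory subunit of every NMDA receptor, had 150 and 99.5 in control and 151 and 150 under AP1AR-DT_OE. Divided by transcript length, GRIN2D stood 9.92 to 14.6 times above GRIN1 and 20.7 to 33.0 times above GRIN2C over the 4 libraries. GRIN3B, a glycine-binding subunit, had 303 and 172 against 304 and 178, but its exons overlap those of TMEM259 on the opposite strand, which had 8081 ± 1566 normalized counts, and it is not stated whether counting used strand. GRIN3A was at or under the limit in every library.

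The other glutamate channels were lower. GRIK5, a kainate subunit that assembles only with others, had 254 and 147 in control and 204 and 196 under AP1AR-DT_OE. GRIK2, a kainate subunit that can form channels alone, had 46.7 and 87.9 against 25.2 and 90.3. Per length GRIK5 was 2.48 to 12.03 times GRIK2, a wider relative range than that of either level. GRIA1 was the single AMPA subunit expressed, at 53.5 and 84.1 against 69.1 and 64.5. GRIA2, which makes AMPA channels impermeable to calcium, had raw counts of 0 and 15 in control and 9 and 7 under AP1AR-DT_OE. Only control replicate 2 was above the limit of 12. Of the delta subunits GRID1 was expressed, and of the 8 metabotropic receptors only GRM7 was, with 14.3 to 31.9 normalized counts.

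CHRNB1, the beta subunit of the nicotinic receptor of muscle, had the smallest relative spread of the 21 genes with a mean of at least 50 normalized counts, with 630 and 678 in control and 652 and 651 under AP1AR-DT_OE. CHRNE and CHRNG, other subunits of the muscle receptor, were at or under the limit in all libraries. Its alpha and delta subunits were not among the genes selected. The exons of CHRNB1 overlap those of RP11-104H15.10 on the same strand (132 ± 129 normalized counts), so its reads may be split. CHRNA3, the alpha subunit of the ganglionic receptor, had 243 and 496 against 304 and 383. CHRNB4, its usual partner and neighbour at 15q25.1, had 161 and 84.9 against 159 and 126. CHRNA5, the accessory subunit of the same cluster, had 72.9 and 167 against 72.4 and 179. Replicate 2 was the higher library for CHRNA3 and CHRNA5 and the lower one for CHRNB4 in both groups. The per-length ratio of CHRNA3 to CHRNB4 accordingly ran from 1.30 to 5.03. CHRNA3 and CHRNA5 overlap each other on opposite strands and could share counts. CHRNA5 also overlaps RP11-650L12.2 on the opposite strand (57.5 ± 36.9 normalized counts). Over all families 10 of the 28 expressed receptor genes had an exon overlap with another gene, 9 on the opposite strand and 1 on the same strand. CHRNB2, a subunit of brain nicotinic receptors, had 583 and 288 against 555 and 395. CHRNA7 passed in every library with 15.9 to 29.6, and its count is uncertain because a partly duplicated copy of the gene exists.

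Inhibitory channels were few. GABRA3, an alpha subunit of the GABA-A receptor, had 295 and 308 in control and 353 and 266 under AP1AR-DT_OE. GABRA6, an alpha subunit otherwise known from cerebellar granule cells, had 18.6 to 51.7. GLRB, the beta subunit that anchors glycine receptors, had 53.5 and 174 against 107 and 80.4. The controls lay on either side of both AP1AR-DT_OE libraries.

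Adrenergic receptors were the main G protein-coupled group. ADRA1D, which raises calcium through Gq, had 1654 and 852 in control and 1813 and 1167 under AP1AR-DT_OE. ADRA1B, of the same class, had 575 and 363 against 435 and 434. ADRA2C, an inhibitory receptor on adrenergic endings, had 427 and 264 against 338 and 363. For all 3 the groups overlapped, and control replicate 2 was the lowest library. ADRA1A and ADRA2A were at or under the limit in every library. Per length ADRA1D was 1.997 to 3.55 times ADRA1B.

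DRD4 and DRD2, inhibitory dopamine receptors, were expressed. DRD4 had 180 and 78.7 in control and 192 and 110 under AP1AR-DT_OE, and DRD2 had 101 and 68.7 against 80.1 and 72.5. CHRM3, the Gq-coupled muscarinic receptor, had 165 and 133 against 105 and 160. Of the serotonin receptors HTR7 and HTR6, which raise cyclic AMP, had 29.6 to 52.5 and 26.23 to 64.9, and HTR1D, which lowers it, had 23.9 to 48.3. HTR1B, of the same class as HTR1D, had raw counts of 36 and 14 in control and 8 and 0 under AP1AR-DT_OE. Its controls were above the limit and its AP1AR-DT_OE libraries under it, with an unadjusted p of 0.11 and an adjusted p of 1.0 (DESeq2 Wald test).

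**Figure D2:**
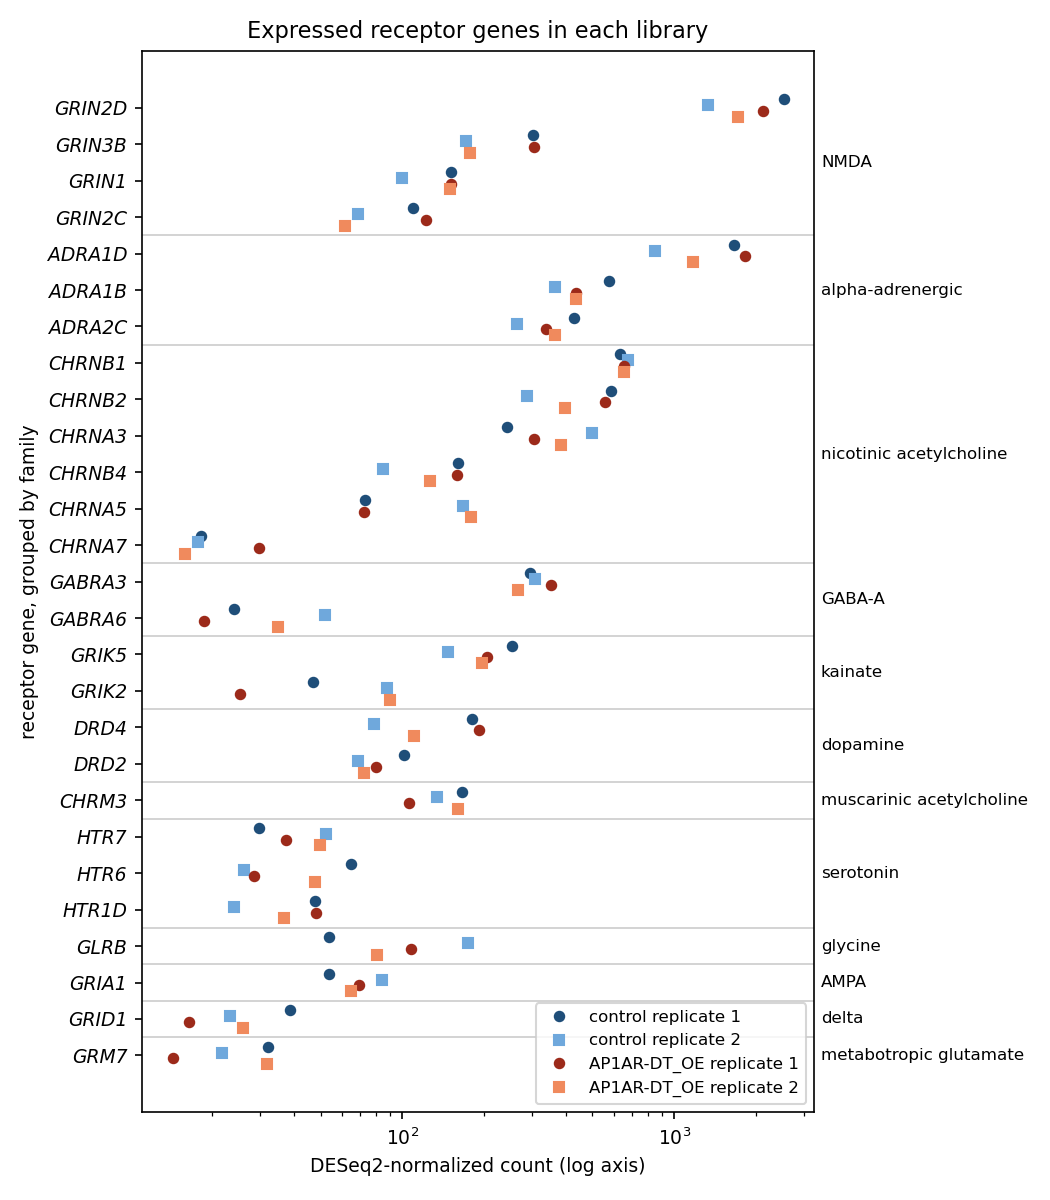
DESeq2-normalized counts (log axis) of 27 of the 28 expressed receptor genes, grouped by family, with circles for replicate 1 and squares for replicate 2 of each group. In no row do both AP1AR-DT_OE points lie on the same side of both control points.

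Single genes were ranked per length, as normalized counts per kilobase of the longest transcript. ADRA1D was the highest in each of the 4 libraries at 466 ± 150 (mean ± SD over the 4 libraries), followed by GRIN2D at 349 ± 93.5 and CHRNB1 at 255 ± 7.71. ADRA1D and GRIN2D kept this order in 4 of 4 libraries, although their means differed by less than the larger SD. GRIN2D and CHRNB1 kept theirs in 3 of 4. ADRA1B followed at 180 ± 35.4 and ADRA2C at 162 ± 31.5. This pair kept its order in 4 of 4 libraries, although its means also differed by less than the larger SD. CHRNA3 (118 ± 36.3) and DRD4 (100.2 ± 39.0) changed places between libraries. At the low end GRID1 had 4.23 ± 1.52 and CHRNA7 2.64 ± 0.81.

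Between AP1AR-DT_OE and control DESeq2 called 0 of the 65 receptor genes at the adjusted threshold of 0.05, where 33 of all 24014 genes were (0.137%). On simulated data of this size the same test called unchanged genes in a number near or above that of all calls here, so this background may hold false calls. At an unadjusted p under 0.05 the count was also 0, and edgeR's quasi-likelihood test gave 0 at either threshold among the 41 receptor genes that passed its filter on low counts. The smallest unadjusted p among the 28 expressed genes was 0.60. Their log2 fold changes ran from -0.54 for GRID1 to 0.34 for CHRNA7, with 13 above 0 and 15 below. The median absolute log2 fold change was 0.14, beside 0.13 for all expressed genes. The groups did not overlap for 0 of the 28, where 1609 of the 14732 expressed genes of the table did not overlap (10.9%).

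The half-width of the 95% interval ran from 0.89 to 2.21 on the log2 scale with a median of 1.26. For GRIN2D the log2 fold change was -0.01 with an interval of -0.96 to 0.94, and for CHRNB1 -0.01 with -0.90 to 0.89. For ADRA1D it was 0.25 with an interval of -0.74 to 1.24. Changes of a size within these bounds were not detectable with 2 libraries a group. GRIN1 had the largest log2 fold change above 0 among genes with a mean of at least 50 normalized counts, 0.27 with an interval of -0.89 to 1.44, but 0.013 without control replicate 2 and 0.60 without control replicate 1. GLRB had the largest below 0 in that set, -0.28 with an interval of -1.70 to 1.14, which became 0.12 with GC correction and 0.82 without control replicate 2.

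**Figure D3:**
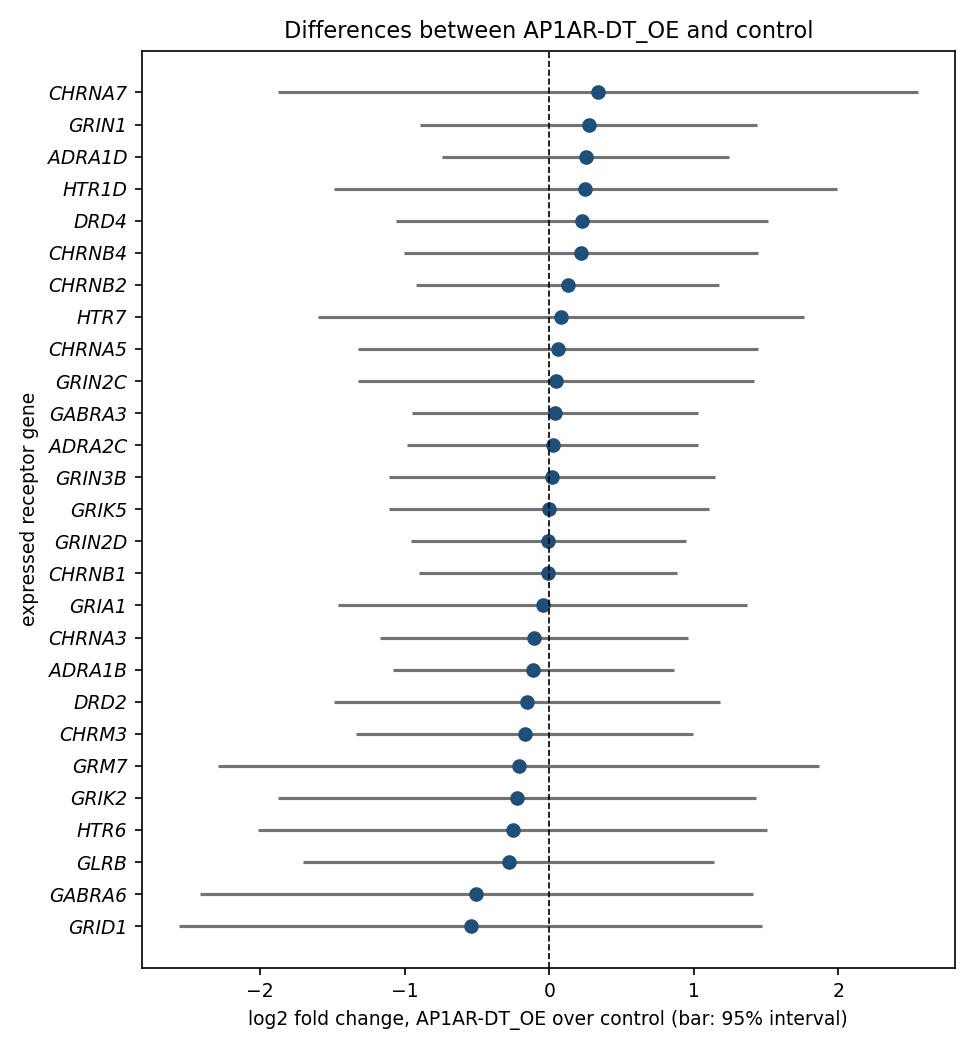
Log2 fold change of AP1AR-DT_OE over control for 27 of the 28 expressed receptor genes (points) with 95% intervals (bars) from DESeq2. Every bar crosses 0, and the points run from -0.54 to 0.34.

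Receptor levels also differed between the libraries of one group. The median absolute log2 ratio of replicate 2 over replicate 1 across the 28 genes was 0.80 for control and 0.42 for AP1AR-DT_OE. Between the groups, the log2 ratio of AP1AR-DT_OE over control had opposite signs in replicates 1 and 2 for 21 of the 28 genes. It was above 0 in both for 5 and below 0 in both for 2. The labels do not say that same-numbered libraries belong together, which also limits the ratios within replicates below. The same count over all expressed genes was not made. The ratio between replicates followed the GC content of the transcript. Across the 28 genes, which share these libraries, Pearson's r was -0.80 and Spearman's rho -0.80 in control libraries, and -0.51 and -0.41 in AP1AR-DT_OE. Over 14715 expressed genes of the table rho was -0.76 and -0.63. All 11 receptor genes with a GC content over 60% were lower in control replicate 2 than in control replicate 1, and 9 of them were lower in AP1AR-DT_OE replicate 2. Of the 10 under 50%, 7 and 6 were higher in replicate 2. GRIN2D, ADRA1D and DRD4 belong to the first set and CHRNA5, GRIK2 and GLRB to the second. The log2 ratio of AP1AR-DT_OE over control had a rho with GC of -0.12 in replicate 1 and 0.59 in replicate 2. The part of GC content in the single log2 fold changes was not tested beyond the correction described under the processing alternatives.

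**Figure D4:**
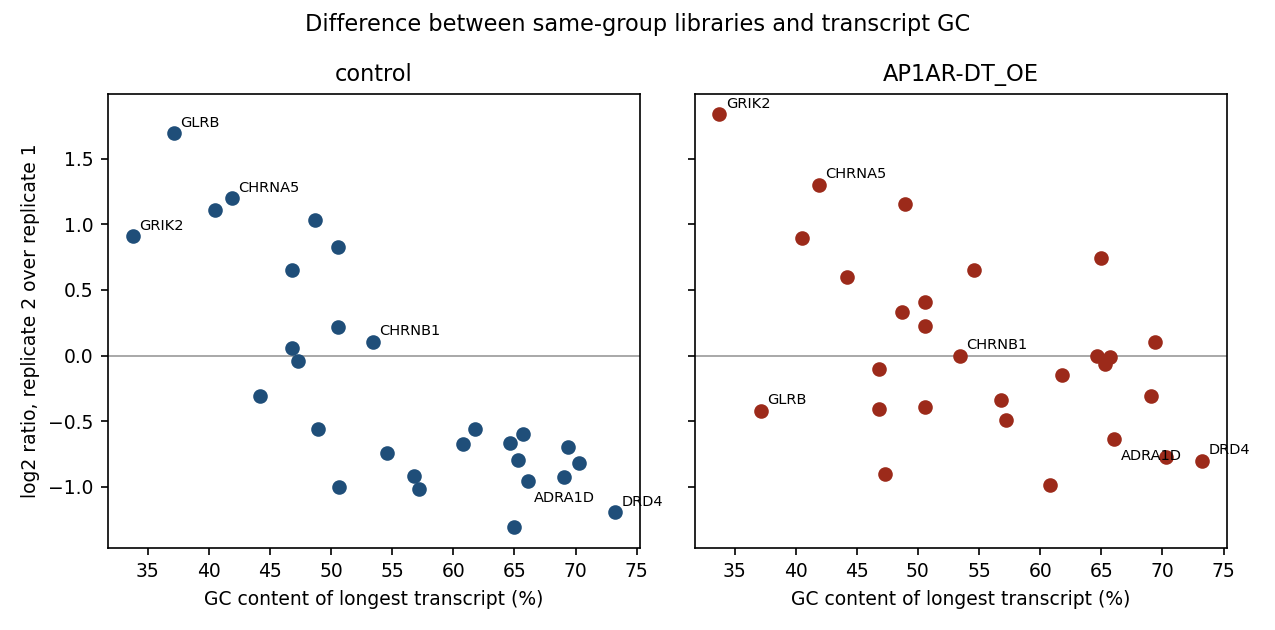
Log2 ratio of replicate 2 over replicate 1 against the GC content (%) of the longest transcript for the 28 expressed receptor genes, in control (left) and AP1AR-DT_OE (right). All 11 genes above 60% GC lie below 0 in the controls, and 9 of them do in AP1AR-DT_OE.

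Promoter windows of RefSeq on GRCh38.p14, from 250 bases before to 50 after a start site, were found for 47 of the 65 genes, 65 windows in all. The 20 expressed genes with a window had a median of 29.0 CG dinucleotides per window, with a range of 3 to 51. The 27 that were not expressed had a median of 16.0 and a range of 1 to 44, and all 27305 genes with windows had 14.0. This is a description of the windows, and the sets overlapped widely. The range is shown by the 150 bases before the start of 4 genes, 5′ to 3′, with CG dinucleotides in capitals. ADRA2C (chr4:3766235-3766384, + strand) had the most per window of all receptor genes, and 28 in this stretch. CHRNA3 (chr15:78620997-78621146, - strand) had 23. GRIN2D (chr19:48393518-48393667, + strand) is shown because it was the second highest gene per length and had 4. HTR3C (chr3:184052897-184053046, + strand), not detectable here, had 0.
ADRA2C: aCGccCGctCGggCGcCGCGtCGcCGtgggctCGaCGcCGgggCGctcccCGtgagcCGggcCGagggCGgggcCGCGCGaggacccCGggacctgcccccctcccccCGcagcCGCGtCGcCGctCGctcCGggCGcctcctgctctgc
CHRNA3: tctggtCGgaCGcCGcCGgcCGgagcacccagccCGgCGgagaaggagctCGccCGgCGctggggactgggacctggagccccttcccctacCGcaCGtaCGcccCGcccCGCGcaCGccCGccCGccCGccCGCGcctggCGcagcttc
GRIN2D: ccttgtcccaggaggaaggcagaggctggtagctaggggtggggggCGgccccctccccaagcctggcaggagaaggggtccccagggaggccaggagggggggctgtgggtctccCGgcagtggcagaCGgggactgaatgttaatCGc
HTR3C: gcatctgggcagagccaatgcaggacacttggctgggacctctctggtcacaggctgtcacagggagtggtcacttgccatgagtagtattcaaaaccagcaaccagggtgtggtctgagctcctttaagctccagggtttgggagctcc

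**Figure D5:**
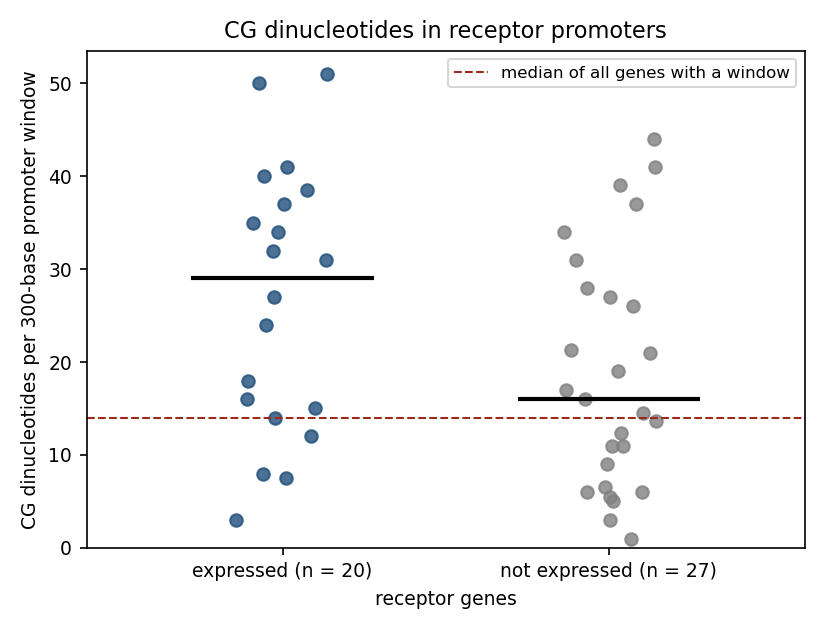
CG dinucleotides per RefSeq promoter window (mean over the windows of a gene) in 20 expressed and 27 not expressed receptor genes, with black bars at the medians of 29.0 and 16.0 and a dashed line at the median of all genes, 14.0. The sets overlap, and the points of both reach from under 5 to over 40.

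A few short motifs were searched on both strands of the same windows, of which there were 35116 over all genes. The Sp1 box GGGCGG was in 38 of the 65 receptor windows and in 15786 of all 35116 (45.0%). TATAAA was in 5 receptor windows, with CHRNB1 the expressed gene, and in 11.5% of all windows. The cyclic AMP element TGACGTCA was in 0 receptor windows and 1.85% of all windows. The core site of NRF1, a factor of the study's own interest, was in GRIA2 alone among receptor genes and in 5.78% of all windows. The element of REST, a repressor of neuronal genes, was in 5 of all 35116 windows (0.0142%), and of the receptor genes only GRIA2 held it, on the strand opposite to the gene. It is shown because GRIA2 passed the detection limit in 1 library alone. The stretch lies at chr4:157220386-157220414 on the + strand, with the element in capitals. A match is a description of letters and says nothing of binding in these cells.
GRIA2: gaggcgCTGTCCTCGGTGCTGAAaggccg

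The genes around the receptors were described with lists for synthesis, transporters, scaffolds, auxiliary subunits, G proteins and other transmitter receptors. Of 116 listed genes 85 were in the table and 69 were expressed. DESeq2 called 0 of the 85, and 1 had an unadjusted p under 0.05. edgeR's quasi-likelihood test also called 0 and left 1 at the unadjusted threshold. The groups did not overlap for 8 of the 69 expressed genes, where 10.9% of all expressed genes of the table did not overlap. For the highest genes of 5 lists the groups overlapped. These were SHMT2, which makes glycine from serine (2815 normalized counts on average), SLC18A3, the vesicular acetylcholine transporter (1269), GABARAP, a GABA-A receptor binding protein (5075), CACNG4, an AMPA receptor auxiliary subunit (4072), and GNAS, the stimulatory G protein (19481). DBH, which makes noradrenaline from dopamine, had 1782 and 997 in control and 1729 and 1528 under AP1AR-DT_OE. TH, also on the synthesis list, had no row, so its level is not known here. Not expressed were CHAT and TPH1 of the synthesis list and SLC5A7 and SLC17A7 of the transporter list. CHAT had raw counts of 0 and 2 in control and 2 and 0 under AP1AR-DT_OE, and TPH1 had 0 and 0 against 0 and 4. SLC5A7 had 9 and 19 against 9 and 0. SLC17A7 had 22 and 35 against 27 and 12, so only AP1AR-DT_OE replicate 2 was not above the limit.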

How the data were processed

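RNA of SK-N-SH cells was sequenced in 4 libraries, 2 per group, assigned by title. Per the paper's methods the authors aligned reads with HISAT2 to hg19 and obtained counts per gene through StringTie, while the submitters' processing notes name TopHat2 2.0.4, SAMtools, HTSeq, Cuffdiff and edgeR 2.6.12. The annotation and the use of strand are not given in the sources used here. The deposited counts are raw whole numbers, and the deposited fold changes and p-values of the authors were not used. Low counts piled up at multiples of 4, so a read pair was worth about 4 counts. Coordinates in the deposited table are GRCh38, although the alignment was to hg19.

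All 24014 genes were fitted in DESeq2 1.42.0 (R 4.3.3) with the group as the only term, a two-sided Wald test and Benjamini-Hochberg adjustment at 0.05. This test follows the study's methods, and edgeR 4.0.16 was an alternative. The fit was tested on simulated data with large known fold changes placed in genes with a mean of at least 50 normalized counts. Their median fitted values were close to the known ones. Changes as small as those fitted for the receptor genes were not simulated. The fit also called unchanged genes there, and a limit set on such calls was not met and was dropped after this was seen. Normalized counts are counts over size factors, and a log2 fold change is AP1AR-DT_OE over control. The floor of 12 counts covers counting error only, since PCR copies are not independent molecules. Transcript length and GC content came from the longest GENCODE 44 transcript (GRCh37). Named genes were members called, expressed members with a mean of at least 50 normalized counts, the highest of each family, the 3 largest log2 fold changes among expressed members whose groups did not overlap (none qualified), per list any gene called and the highest, and AP1AR-DT. Some genes under this rule are not reported here. Genes named outside it were chosen after their values were seen. The members and lists were chosen with earlier results of these data known. Alternatives were the size factors, filters, the replicate block, GC correction and leaving out each library.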

Additional observations from a re-analysis of the deposited data

How the results depend on the processing

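No receptor gene was called in any of the 14 fits, which were DESeq2, edgeR, TMM factors, a count filter, no independent filtering, counts divided by 4, the replicate block, GC correction, their combinations and each library left out. The number of expressed receptor genes was 21 to 38 under other cut-offs and 29 to 30 without 1 library. The replicate number is not called a batch in the labels and only 2 pairs exist, so the block is given here alone: same-numbered libraries deviated together (correlation 0.49 over 13298 genes). With the replicate block the receptor count stayed 0 and the count of surrounding genes called became 1 (DESeq2), and GC correction with the replicate block also gave 1. edgeR with the block gave 0. HTR1B had an unadjusted p of 0.042 with the block and 0.0090 without AP1AR-DT_OE replicate 1, and CHRNA9 had 0.013 without control replicate 2, each with an adjusted p of 1.0 or 0.999 (DESeq2). AP1AR-DT had a log2 fold change of 6.60 and an adjusted p of 0.39 in edgeR's quasi-likelihood test, and 6.02 to 8.05 without 1 library. The median half-width of the 95% interval over the expressed receptor genes was 1.26, 1.06 with the block, 0.94 with GC correction and 1.03 with both.

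Of 213 other log2 fold changes of the 24 named receptor genes 14 had the other sign. GRIN2D gave 0.058 with the block and 0.051 in edgeR with it. GRIK5 gave 0.00038 in edgeR, 0.050 with the block and 0.042 in edgeR with it. With GC correction, and with GC correction and the block, ADRA2C gave -0.011 and -0.027, GRIN3B -0.050 and -0.065, GLRB 0.12 and 0.013, and GRIN2C -0.019 and -0.053. GRIN2C gave -0.0049 in edgeR with the block. No call was involved. Without 1 library, 21 of the 24 had the other sign at least once, and their log2 fold changes ran -0.38 to 0.53 for GRIN2D, -0.14 to 0.81 for ADRA1D, -0.059 to 0.059 for CHRNB1, -0.29 to 0.72 for CHRNB2, -0.39 to 0.26 for ADRA1B, -0.53 to 0.51 for CHRNA3, -0.27 to 0.41 for ADRA2C, -0.19 to 0.22 for GABRA3, -0.42 to 0.49 for GRIN3B, -0.34 to 0.45 for GRIK5, -0.51 to 0.093 for CHRM3, -0.24 to 0.94 for DRD4, -0.16 to 0.75 for CHRNB4, -0.75 to 0.80 for CHRNA5, -0.89 to 0.82 for GLRB, -0.54 to 0.44 for GRIN2C, -0.40 to 0.15 for DRD2, -0.33 to 0.33 for GRIA1, -1.43 to 0.42 for GRIK2, -0.27 to 0.56 for HTR7 and -0.92 to 0.25 for GRM7. GRIN1 (0.013 to 0.60) and GRID1 (-0.92 to -0.13) kept their sign. The cause was not tested, and a group left with 1 library was assumed to vary like the other. Depth limits the 37 receptor genes that did not pass 12 counts in every library.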
